A study of Homo sapiens with 4 samples.

Results

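The genes described here were 5 receptors of bile acid signalling pathways, RXRA, NR1H4, VDR, S1PR2 and FGFR4. With them were 3 pumps that carry bile acids out of cells, ABCC2, ABCC3 and ABCC4. A peak was assigned to a gene when its summit lay inside the gene's hg19 span, and 31 of 63093 control peaks and 26 of 52188 peaks from cells given chenodeoxycholic acid (CDCA) met this rule. The peaks came from an experiment in GES-1, a human gastric epithelial cell line grown in RPMI-1640 medium. One culture condition was untreated, and the other received CDCA, a primary bile acid, at 100 µM for 48 h. Each condition had 1 input library and 1 library immunoprecipitated with an antibody against N6-methyladenosine (m6A), the commonest internal modification of messenger RNA. The study's title names the m6A demethylase ALKBH5 and gastric intestinal metaplasia induced by bile acid. The peak lists name no genes, so the labelled cell type was not checked against its markers here.

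Bile acids act as hormones as well as detergents. Inside the cell they bind nuclear receptors: NR1H4 encodes FXR, for which CDCA is a natural ligand, VDR encodes the vitamin D receptor, which also binds the secondary bile acid lithocholic acid, and RXRA encodes the retinoid X receptor that pairs with either of them on DNA. At the cell surface S1PR2, a receptor for sphingosine-1-phosphate, also responds to conjugated bile acids. FGFR4 is the liver receptor for FGF19, the hormone that the intestine releases when FXR is active. ABCC2, ABCC3 and ABCC4 encode the pumps MRP2, MRP3 and MRP4, of which the first works at the apical membrane and ABCC3 at the basolateral membrane, where it returns bile acid conjugates to the blood. In messenger RNA, m6A is known to gather in long internal exons and near the stop codon and the 3′ untranslated region.

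Fold enrichment, read as the height of the summit relative to its local background, −log10 q and the height itself are the authors' own values and serve only to describe and rank peaks within 1 list. Every height below 60 was a whole multiple of a smallest step, which was 0.862 for control and 0.640 for CDCA (100% of such peaks, within 0.02 steps). If each step is 1 fragment, height gives a number of fragments, for which exact 95% Poisson intervals are given. The lists hold only peaks with a fold enrichment of at least 6. A gene without a row thus had no listed peak, which does not show that it lacked m6A. With 1 library per condition no test between control and CDCA was possible, all intervals cover counting error only, and a difference between libraries cannot be told apart from an effect of CDCA. Transcript abundance was not analysed here, so more methylation and more transcript cannot be told apart either.

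Listed m6A peaks were found in 5 of the 8 genes in control cells and in 6 of the 8 in CDCA-treated cells. RXRA, ABCC2, ABCC3 and ABCC4 had peaks in both lists. NR1H4 had 1 peak, in the control list only, VDR had 2 and S1PR2 had 1, in the CDCA list only, and FGFR4 was not listed in either. ABCC4 held the most, with 15 control and 12 CDCA peaks, followed by RXRA with 8 and 6. ABCC2 held 4 and 2, and ABCC3 held 3 in each list. Together, the CDCA list had 83.9% of the control number in these genes (interval 47.8 to 146), beside 82.7% (81.8 to 83.7) over the whole lists.

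**Figure D1:**
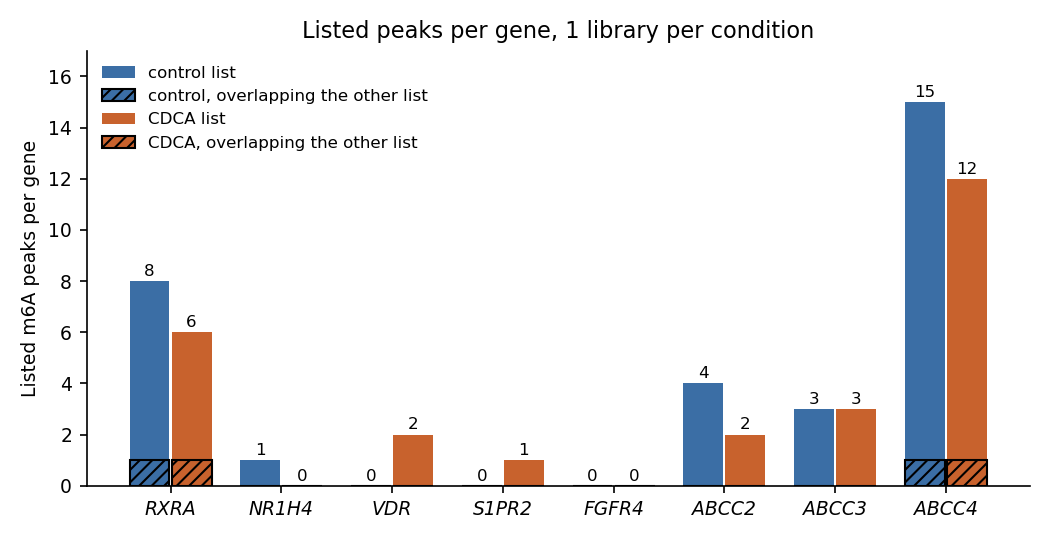
Number of listed m6A peaks (vertical axis) in each of the 8 genes (horizontal axis), in the control list (blue) and the CDCA list (orange), with hatching for peaks that have an overlapping partner; each bar is a count from 1 library, so there are no error bars. ABCC4 (15 and 12) and RXRA (8 and 6) hold most peaks, and each has 1 overlapping pair.

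The transporter genes were longer in all than the receptor genes and held more peaks. Over 410 kb, the 3 transporters had 22 control and 17 CDCA peaks, or 5.37 and 4.15 per 100 kb. The 5 receptors had 9 peaks in each list over 335 kb, or 2.69 per 100 kb. Of these, RXRA supplied 8 in control and 6 in CDCA, or 6.4 and 4.8 per 100 kb, which is above the pooled transporters. VDR had 0 and 1.96 per 100 kb, NR1H4 1.10 and 0, and FGFR4 0 in both lists. S1PR2 had 0 and 25, the latter from 1 peak in a span of 4 kb. The lower pooled density thus did not hold for each receptor. A density over the whole lists was not computed, so neither group has a baseline here. ABCC4 and RXRA held more peaks than the sequence beside them. Which genes lie in that sequence, and whether they are transcribed, was not analysed here. ABCC4, at 282 kb, held 15 control peaks, while stretches of the same length on its lower- and higher-coordinate sides held 1 and 2. Of the 2 on the higher side, 1 had its summit only 153 bp beyond the span. In the CDCA list ABCC4 held 12, and the stretches on either side held 0. RXRA, at 125 kb, held 8 control peaks beside 0 and 2, and 6 CDCA peaks beside 0 and 1. The other genes gave a mixed picture. In ABCC2, the 4 control peaks compare with 4 and 2, and the 2 CDCA peaks with 3 and 2. ABCC3 had 3 control peaks beside 0 and 3, and 3 CDCA peaks beside 0 and 5. VDR had 0 control peaks beside 8 and 0, and 2 CDCA peaks beside 1 and 0. NR1H4 had 1 control peak beside 0 and 1, and 0 CDCA peaks beside 0 and 3. S1PR2 had 0 control peaks and 1 CDCA peak, with 0 in the stretches beside it in both lists, and FGFR4 had 0 peaks beside 1 and 0 in both.

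Of the member peaks, 2 control and 2 CDCA peaks shared at least 1 bp with a partner in the opposite list. That was 6.45% of 31 control peaks (exact Clopper-Pearson 95% interval 0.791 to 21.4), beside 18.2% of all control peaks, and 7.69% of 26 CDCA peaks (0.946 to 25.1), beside 22.2% of all CDCA peaks. The intervals of the control and CDCA shares both include the value for the whole list. Both shares rest on the same 2 pairs, so they are not separate observations. The intervals also treat peaks of the same gene as independent, which they may not be. One overlapping pair lay in RXRA and the other in ABCC4, and no pair was found in ABCC2 or ABCC3. The shared peaks were the most significant ones of these genes: by −log10 q, they ranked first and second among the 31 control and first and second among the 26 CDCA member peaks. Sharing also rose with significance over all peaks. At a −log10 q of 40 to below 60, 23.9% of 5109 control peaks and 1140 of 2280 CDCA peaks were shared, and 2 of 3 control and 2 of 2 CDCA member peaks were. At 20 to below 40, 0 of 6 control and 0 of 1 CDCA member peaks were shared, where the lists gave 12.4% and 24.0%. Below 20, 0 of 22 control and 0 of 23 CDCA member peaks were shared, where the lists gave 7.50% and 10.7% at 10 to below 20 and 5.70% and 6.43% below 10.

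RXRA, the common partner of the nuclear receptors, carried the strongest member peak of the control list, close to its 3′ end. The site lay on chromosome 9 at 137328287 to 137328747 in control and at 137328357 to 137328640 in CDCA, inside the span from 137.208 to 137.333 Mb on the plus strand. In control its summit rested on 124 fragments (interval 103 to 148), with a fold enrichment of 8.30 and a −log10 q of 58.6. In CDCA it rested on 102 fragments (83.2 to 124), with a fold of 9.74 and a −log10 q of 41.7. Both peaks were called against a high local background, 12.0 in control and 5.80 in CDCA, so a tall summit came with a moderate fold. Within its own list the control peak stood at the 87.3rd percentile of −log10 q but the 36.6th of fold, and the CDCA peak at the 84.7th and the 63.3rd. The summits were 66 bp apart, the CDCA peak lay wholly inside the control peak (100% of its length), and both summits were 4.5 kb before the end of the span, whose ends are known to the nearest 1 kb.

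A second peak followed in each list between this RXRA site and the end of the span, at different positions. In control it lay at 137329504 to 137329767, 3.4 kb from the end, with 42 fragments, a fold of 8.09 and a −log10 q of 21.4. In CDCA it lay at 137331275 to 137331477, 1.6 kb from the end, with 48 fragments, a fold of 9.01 and a −log10 q of 19.7. These peaks were thus not shared. The numbers that every peak carries rise with position in both lists, so a number left out is read here as a peak that was called and not listed. Between the RXRA pair's control peak and the next control peak 1 number was left out, and between the corresponding CDCA peaks 3 were, so further calls lay in this stretch in both libraries.

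The rest of RXRA carried scattered peaks, none of which overlapped between the lists, and all had a lower −log10 q than the shared site. In control they were at 137240767 to 137241057 (fold 10.1), 137249601 to 137249800 (6.88), 137256712 to 137256911 (8.71), 137269059 to 137269313 (11.0), 137276441 to 137276640 (6.31) and 137313369 to 137313568 (6.79). These rested on 12 to 24 fragments. In CDCA they were at 137219452 to 137219692 (fold 9.14), 137259700 to 137259904 (11.9), 137260215 to 137260439 (13.03) and 137301152 to 137301385 (7.67), on 27 to 34 fragments. The pair of CDCA peaks near 52 kb from the gene start, 51.8 and 52.3 kb, had the highest folds of the 6 CDCA peaks of RXRA. The nearest control peak was 2788 bp from the first of them, and 2 numbers were left out of the control list there. From its first to its last peak in the gene, RXRA took up 13 numbers in control, of which 8 were listed, and 13 in CDCA, of which 6 were listed. These runs cover unlike stretches, with summits from 137240897 to 137329615 in control and from 137219554 to 137331423 in CDCA. Equal counts over them do not show that as many peaks were numbered in the gene. Between the listed peaks that flank the span, 14 numbers fell in control and 13 in CDCA.

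The nuclear receptors that bind bile acids, NR1H4 and VDR, had few peaks. NR1H4, the gene of FXR, had a single control peak on chromosome 12 at 100923452 to 100923651, the minimum length of 200 bp, about 57 kb into a span of 91 kb. It rested on 14 fragments (interval 7.65 to 23.5), with a fold of 7.27 and a −log10 q of 9.08, and stood at the 10.8th percentile of −log10 q in the control list. No CDCA peak was listed in the gene. Between the CDCA peaks that flank it, 134.6 kb before and 15.4 kb after the span, 1 number was left out. The control list left out 12 numbers between its flanking peaks, 161.5 kb before and 60.8 kb after the span, so the counts cover unlike stretches. VDR, on the minus strand of chromosome 12 from 48.235 to 48.337 Mb, had no control peak and 2 CDCA peaks, both toward its 3′ end. One, at 48240156 to 48240550, was 5.4 kb from the end, with 28 fragments (18.6 to 40.5), a fold of 10.8 and a −log10 q of 15.7, at the 71.3rd and 54.3rd percentiles of the CDCA list. The other, at 48244694 to 48244893, was 9.8 kb from the end, with 15 fragments, the fewest of any listed CDCA peak, a fold of 6.07 and a −log10 q of 5.84. Both stood on the lowest background of the list, 0.746. In the control list 6 numbers were left out between the peaks on either side of VDR, so called but unlisted peaks may lie in it there too.

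Of the cell-surface receptors, S1PR2 had 1 peak and FGFR4 had none. The S1PR2 peak was in the CDCA list, on chromosome 19 at 10333053 to 10333298, 1.2 kb from the 3′ end of a span of 4 kb. Its 44 fragments (32.0 to 59.1) over a background of 3 gave a fold of 7.29 and a −log10 q of 15.7, at the 53.2nd percentile of the CDCA list. The control list had no peak there and left out 1 number between the flanking peaks, which lay 14.6 and 14.9 kb beyond the span. FGFR4, a span of 13 kb on chromosome 5, was the one gene of the 8 for which the lists left no room: between the flanking peaks, 9.8 kb before and 36 kb after the span in control and 5.2 and 36.6 kb in CDCA, 0 numbers were left out in both. No peak was thus numbered in the FGFR4 span in either library.

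ABCC4, which pumps bile acids, cyclic nucleotides and prostaglandins out of cells, had the most peaks, spread along its whole length. Its shared site lay on chromosome 13 at 95686741 to 95687040 in control and 95686665 to 95686911 in CDCA, inside a minus-strand span from 95.672 to 95.954 Mb, and 15 kb before the 3′ end. In control it had 54 fragments (40.6 to 70.5), a fold of 15.9 and a −log10 q of 43.1. In CDCA it had 80 fragments (63.4 to 99.6), a fold of 13.7 and a −log10 q of 42.7, the highest of the CDCA member peaks. Within their lists they stood at the 81.4th percentile of −log10 q in control and the 84.9th in CDCA. The peaks overlapped over 171 bp, and their summits were 103 bp apart.

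The next strongest ABCC4 peaks of the control list had no listed CDCA partner. The peak at 95734674 to 95734936 had the highest fold of the 31 control member peaks, 18.4, with 44 fragments (32.0 to 59.1) and a −log10 q of 40.4, and 41504 bp separated it from the closest CDCA peak. It was followed by 95877162 to 95877389 (42 fragments, fold 14.7), 95872014 to 95872279 (35 fragments, fold 13.9) and 95930282 to 95930481 (33 fragments, fold 12.3). The last of these came nearest to a partner, with 373 bp between it and the CDCA peak at 95930855 to 95931054 (22 fragments, fold 8.63). In the CDCA list the strongest ABCC4 peaks after the shared one were at 95919169 to 95919387 (32 fragments, fold 11.9, −log10 q 19.3), 95938626 to 95938825 (25 fragments, fold 9.73), 95776441 to 95776695 (26 fragments, fold 8.56) and the peak at 95930855. Control peaks in ABCC4 reached a −log10 q of at least 20 in 5 of 15 cases and CDCA peaks in 1 of 12, beside 49.8% and 33.8% of all peaks of the lists.

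Along ABCC4, stretches with peaks of 1 list only followed one another. Between control summits at 95780691 and 95870429, which are 89.7 kb apart with no listed control peak between them, the CDCA list had 5 peaks with folds of 6.20 to 7.27 on 19 to 28 fragments. The control list left out 2 numbers in this stretch. Between CDCA summits at 95840220 and 95898254, 58.0 kb apart, the control list had 3 peaks with folds of 7.12 to 14.7, and the CDCA list left out 2 numbers. Between the CDCA summits at 95686820 and 95776544, 89.7 kb apart, lay 5 control summits, including that of the shared peak and the one of fold 18.4, where the CDCA list left out 1 number. With 1 number and 4 unshared control peaks, at most 1 of these had a numbered CDCA call that was left out. From first to last peak in the gene, 15 of 22 numbers were listed in control and 12 of 18 in CDCA.

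**Figure D2:**
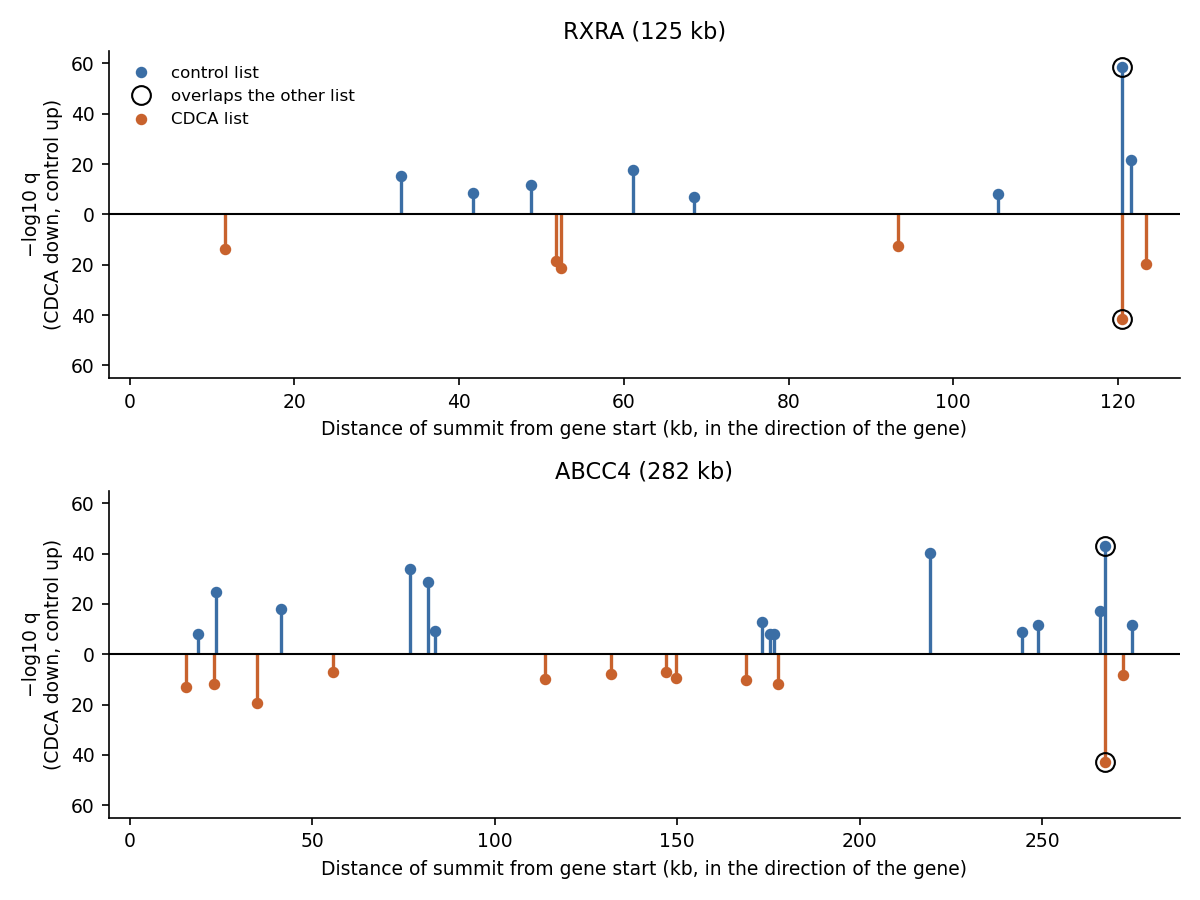
Summits of the listed peaks along RXRA (top) and ABCC4 (bottom), with the distance from the gene start in kb on the horizontal axis and −log10 q on the vertical axis, control upward in blue and CDCA downward in orange, and circles round peaks that overlap the other list. The RXRA pair (58.6 and 41.7) stands 4.5 kb before the 3′ end of its span. The ABCC4 pair (43.1 and 42.7) stands 14.8 to 14.9 kb before the end of its own, and none of the other peaks overlaps a peak of the opposite list.

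One further control peak lay just beyond the 5′ edge of the ABCC4 span, with its summit 153 bp outside and part of its length, 95953987 to 95954409, inside. It was 423 bp long, with 27 fragments, a fold of 13.5 and a −log10 q of 23.8, and was not counted as a member. Just inside the limits, a CDCA peak of ABCC2 at 101542013 to 101542212 had its summit 0.1 kb from the edge of the span, with 17 fragments and a fold of 6.80, and a control peak of ABCC3 at 48712552 to 48712751 lay 0.7 kb from the edge, with 14 fragments and a fold of 7.27.

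ABCC2, the apical pump that secretes conjugated bile acids and bilirubin in liver and intestine, had 4 control and 2 CDCA peaks on chromosome 10, all at the minimum length of 200 bp and all on the lowest background of their list. The control peaks formed a group of 3 at 16 to 18 kb from the gene start, at 101557523 to 101557722 (fold 6.79), 101559043 to 101559242 (14.9) and 101560067 to 101560266 (8.23), and another lay near the 3′ end at 101605282 to 101605481 (12.5). The middle peak of the group, on 30 fragments (20.2 to 42.8), and the one near the 3′ end, on 25 (16.2 to 36.9), had a −log10 q of 26.7 and 20.9, at the 64.4th and 52.4th percentiles of the control list. Besides the peak at the edge of the span, the CDCA list had one at 101578026 to 101578225, with 16 fragments and a fold of 6.43. Both CDCA peaks had a −log10 q of 6.95, at the 7.98th percentile. No ABCC2 peak lay within 15 kb of a peak of the other list. Between the CDCA peaks on either side of the group of 3, 3 numbers were left out, so CDCA calls that were not listed are possible there.

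ABCC3, the basolateral pump, had 3 peaks in each list on chromosome 17, in separate parts of the gene. The control peaks were in the first 22 kb: the one near the edge of the span, then 48729297 to 48729496 (12 fragments, fold 6.31) and 48733871 to 48734070 (16 fragments, fold 8.23). The CDCA peaks were between 34 and 45 kb: 48745499 to 48745720 (26 fragments, fold 10.1), 48746560 to 48746817 (20 fragments, fold 7.90) and 48756670 to 48756869 (34 fragments, 23.5 to 47.5, fold 11.4). The nearest control and CDCA peaks were 11428 bp apart. No number was left out between the first and last ABCC3 peak of either list. At the 3 CDCA peaks, 0 numbers were left out of the control list, so on this reading no control peak was called there. At the 3 control peaks, the CDCA list left out 2 numbers. All control peaks of ABCC3 were weak in their own list, with a −log10 q of 6.78 to 10.3, at the 1.24th to 16.5th percentiles. Those of CDCA ran from 9.29 to 18.7, at the 23.1st to 63.8th percentiles of the CDCA list. A difference between the lists was not tested.

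In both lists, the medians of −log10 q and fold of the peaks in these genes lay below those of all peaks. The control median −log10 q was 11.5 and median fold 8.23, beside 19.9 and 9.67 for all control peaks. The CDCA medians were 12.3 and 8.23, beside 14.4 and 8.63. Of the 31 control peaks 9 had a −log10 q of at least 20 (29.0%, 14.2 to 48.0), beside 49.8% of the list, and of the 26 CDCA peaks 3 had (11.5%, 2.45 to 30.2), beside 33.8%. A fold of at least 10 was reached by 10 control peaks (32.3%, 16.7 to 51.4) beside 47.0% of the list, and by 7 CDCA peaks (26.9%, 11.6 to 47.8) beside 35.3%. No member peak had a −log10 q of 100 or more, a level that 7.77% of control and 7.90% of CDCA peaks reached. Minimum-length peaks of 200 bp were 22 of 31 in control (71.0%, 52.0 to 85.8), beside 33.3% of the list, and 13 of 26 in CDCA (interval 29.9 to 70.1%), beside 33.2%. The lowest background of the list lay under 16 of 31 control peaks (51.6%, 33.1 to 69.8), beside 32.8%, and under 11 of 26 CDCA peaks (42.3%, 23.4 to 63.1), beside 36.7%. Peaks of the same gene may share a transcript, so they are not independent sites. These shares describe the genes with peaks, 5 in control and 6 in CDCA.

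**Figure D3:**
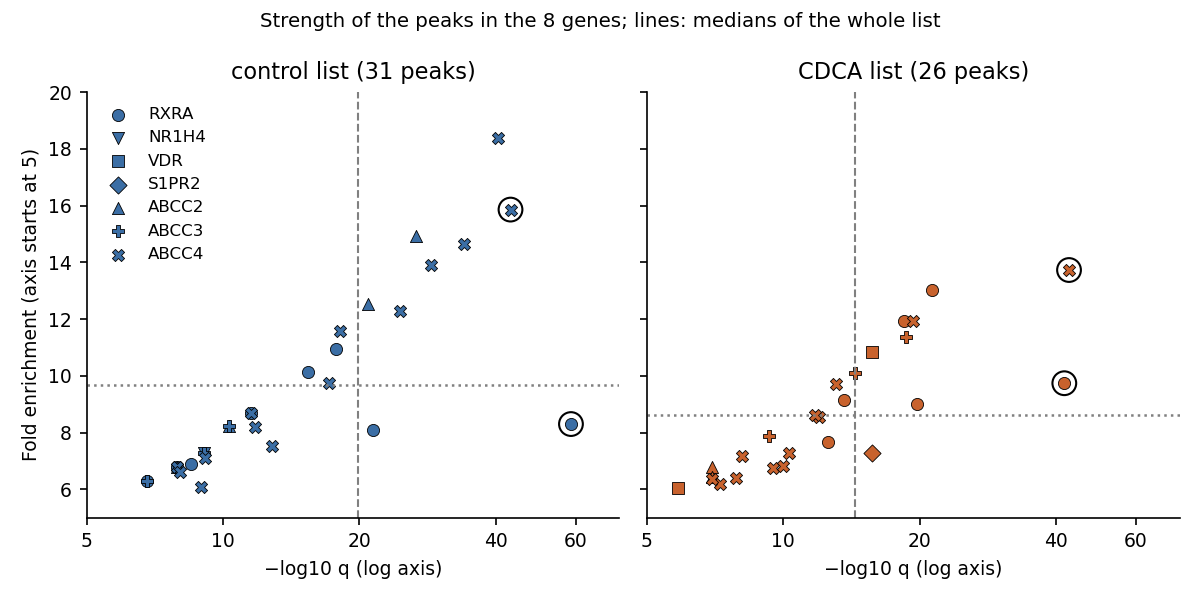
Fold enrichment against −log10 q (log axis) for the 31 control member peaks (left) and the 26 CDCA member peaks (right), each point a peak and each symbol a gene, with circles round the shared peaks and lines at the medians of the whole list (dashed for −log10 q, dotted for fold). Most control points lie left of the dashed line at 19.9. In control the RXRA shared peak has the highest −log10 q, 58.6 with a fold of 8.30, ahead of the ABCC4 one (43.1, fold 15.9). In CDCA the shared peaks of ABCC4 (42.7, fold 13.7) and RXRA (41.7, fold 9.74) lie close together in −log10 q.

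Beside most member peaks without a partner, a number was missing from the opposite list. That held for 24 of 29 unshared control peaks (82.8%, 64.2 to 94.2), beside 73.2% of all unshared control peaks, and for 16 of 24 unshared CDCA peaks (66.7%, 44.7 to 84.4), beside 63.2%. Peaks in the same gap of the opposite list count the same left-out number again. The shares are thus upper limits on unlisted partners, and their intervals treat the peaks as independent, which they are not. For the other 5 control and 8 CDCA peaks, the other list had no called peak that was left out beside them. The control ones were all in ABCC4, at 95777283, 95778526, 95780601, 95912368 and 95935111, given by their starts. The CDCA ones were in RXRA at 137219452 and 137301152, in ABCC2 at 101542013, in ABCC3 all 3, and in ABCC4 at 95681771 and 95930855. A left-out number gives no exact position, and which peaks were numbered but not listed was not tested.

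Strand was not given in the lists, so a peak could come from another gene on either strand. In a RefSeq table of another build (GRCh38.p14), used for names only, RXRA overlapped 1 other gene (MIR4669), S1PR2 1 (MIR4322), ABCC2 1 (NANOGP6, a pseudogene) and ABCC4 3 (SNORD13G and 2 uncharacterised long noncoding RNA genes). VDR, NR1H4, FGFR4 and ABCC3 overlapped none. The S1PR2 gene was 9899 bp long in that table, while the span used here was 4 kb, and VDR was 63458 bp long against 102 kb. Whether a peak lay in an exon, an intron or an untranslated region was not analysed here.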

How the data were processed

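The data were peak lists of 2 m6A immunoprecipitation libraries from GES-1 cells, 1 untreated and 1 given CDCA. The submitters' processing notes name hg19 as the build and, without a stated role, MACS2 2.1.0 and TopHat2 2.0.13. How the input, filters and thresholds were used is not given in the sources used here. Per the file headers, the deposited table gives each peak's height as a signal, fold enrichment as a ratio, and −log10 of a p-value and of a q-value. Peaks were listed per library, not on pooled samples.

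A peak belonged to a gene when its summit lay inside the gene's hg19 span. Overlap by at least 1 bp made a peak shared. Local background was height plus 1 over fold enrichment, minus 1. Fragments were height over the smallest step. Percentiles are within a list. The weakest listed summits rested on 12 control and 15 CDCA fragments, and depth in reads is otherwise unknown. All 8 genes are named, every peak of a gene with up to 10 peaks in a list is given, and otherwise each shared peak and the 5 with the highest −log10 q. Other bile acid genes were not analysed here, since hg19 positions were not at hand. No peak sequences are shown, as no hg19 genome was used. The genes, lists and alternatives were chosen with earlier results of these data known. Alternatives covered peak thresholds, gene spans and the definition of overlap. Overlap, distance, span and number steps were tested on simulated data. The work used scipy 1.17.1, pandas 2.3.3, numpy 2.4.6 and matplotlib 3.10.9 under Python 3.11.15.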

Additional observations from a re-analysis of the deposited data

How the results depend on the processing

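Thresholds on strength reduced the counts in these genes most. With a −log10 q of at least 20, 9 control and 3 CDCA peaks were left, in 3 and 2 genes. With a fold enrichment of at least 10, 10 control and 7 CDCA peaks were left, in 3 control genes, and 1 shared peak in each list, since the RXRA pair has a fold below 10. Summits within 100 bp gave 1 shared peak in each list, because the ABCC4 summits are 103 bp apart. Spans widened by 6 kb, an alternative chosen after seeing the data, raised the shared peaks to 4 in each list: the 2 added pairs lay 3.3 to 4.3 kb beyond the 3′ end of ABCC3. They may belong to the neighbouring gene, and one pair had a −log10 q of 1039 in control and 1192 in CDCA, above every member peak. The remaining alternatives (any part of a peak inside the span, spans widened by 1 kb, reciprocal overlap of 50%, a partner within 200 bp) left each count within 1.5 times its value. No paired analysis was possible because each condition had 1 library. Peaks of 12 to 30 fragments have wide counting intervals, so their presence in 1 list alone is weakly determined.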
